A study of Etheostoma caeruleum with 31 samples.

Results

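The winter (developing) testis of the rainbow darter, Etheostoma caeruleum, was set against the breeding (spawning) testis. The members are arrays, chosen by their titles alone: the 6 arrays titled developing and the 7 of the spawning stage, 13 of the 31 arrays of the series. Developing males were caught in January 2012 and spawning males in May 2011, all adult wild fish taken from a clean stretch of the Grand River in Ontario, Canada. The labels name no treatment besides the season of capture. The other stages were post-spawning (August 2011, 6 arrays), recrudescence (October 2011, 5 arrays) and pre-spawning (March 2012, 7 arrays). Each array holds total RNA from the testis, labelled with Cy3 and read in 1 colour, and the labels call the arrays of a stage biological replicates. Each stage comes from a single collection, so that reproductive state cannot be told apart from season, water temperature or collection year.

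In seasonally breeding fishes the testis is rebuilt every year. Spermatogonia divide and pass through meiosis inside cysts formed by Sertoli cells, spermatids then mature into sperm, and the sperm are stored and released in the breeding season. Leydig cells, which lie in the tissue outside the cysts, make androgens under the control of pituitary gonadotropins. The mix of germ cells and somatic cells in the organ therefore changes with the season, and in RNA from a whole testis fewer cells of a type and less RNA per cell cannot be told apart.

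The files used here identify probes by design names and do not pair them with genes or sequences. The tissue could therefore not be checked against marker genes, and no gene or pathway is named. Probes are described by size of change, by fish and by stage. A probe's level is the log2 of its intensity minus the log2 of the array's 75th percentile, so that 0 is a signal equal to that percentile. Levels serve to compare arrays for 1 probe, since different probes can bind with different strength.

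Spot intensity at the 75th percentile averaged 4026 ± 658 on developing and 3616 ± 535 on spawning arrays (SD, n = 6 and 7), a difference not past the threshold in an exact two-sided permutation test (p = 0.245, adjusted over 4 whole-array measures p = 0.327). The share of probes well above background ran from 86.6% to 95.2% on developing arrays and from 78.0% to 92.6% on spawning arrays (exact permutation p = 0.424). The 100 brightest probes held 34.6 ± 1.58% of the summed signal in developing testis and 30.4 ± 1.66% in spawning testis (exact permutation p = 0.00291, adjusted p = 0.00583). Single arrays ran from 32.2% to 36.8% in developing and from 27.7% to 32.5% in spawning testis, so that the ranges overlap slightly. No pair of arrays was identical, and the highest correlation between any 2 was 0.985.

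More than every second probe on the array differed between winter and breeding testis. Of 8638 probes tested, 2996 were higher and 2013 lower in developing than in spawning testis (limma, Benjamini-Hochberg adjusted p under 0.05), which is 34.7% and 23.3% of those tested and 58.0% together. The median difference was 0.79 on the log2 scale among the higher probes and -0.76 among the lower ones. Many calls were small, since 1665 of the 5009 called probes differed by less than 1.5-fold. For 2527 probes (29.3%) the arrays of the stages did not overlap at all: in 1510 (17.5%) every developing fish lay above every spawning fish, and in 1017 (11.8%) every developing fish lay below. On the array, 5963 of the tested probes were printed as 2 spots. In all 3524 called probes among them both spots moved in the direction of the call. The call was made from the average of these same spots, so that this shows printing precision only.

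How many called probes were higher, and how many lower, changed with the scaling. Over all tested probes the median difference was 0.12 on the log2 scale. With arrays centred on their median it was -0.01, and 2425 probes were higher and 2481 lower, so that 49.4% of the called probes were higher in place of 59.8%. With quantile normalisation 2619 were higher and 2373 lower (52.5% higher). With the authors' deposited log2 values 2599 were higher and 2341 lower (52.6% higher). The median difference was 0.026 both with quantile normalisation and with the authors' values, so that they may not be separate checks. With scaling to Agilent's spike-in probes 2158 were higher and 917 lower (70.2% higher), and the count of calls was 3075 in place of 5009. No probe called under scaling to the 75th percentile was called in the opposite direction under any of these settings. Median centring and spike-in scaling shift all differences by a small common amount, so that for them a reversed call was unlikely from the outset.

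**Figure D1:**
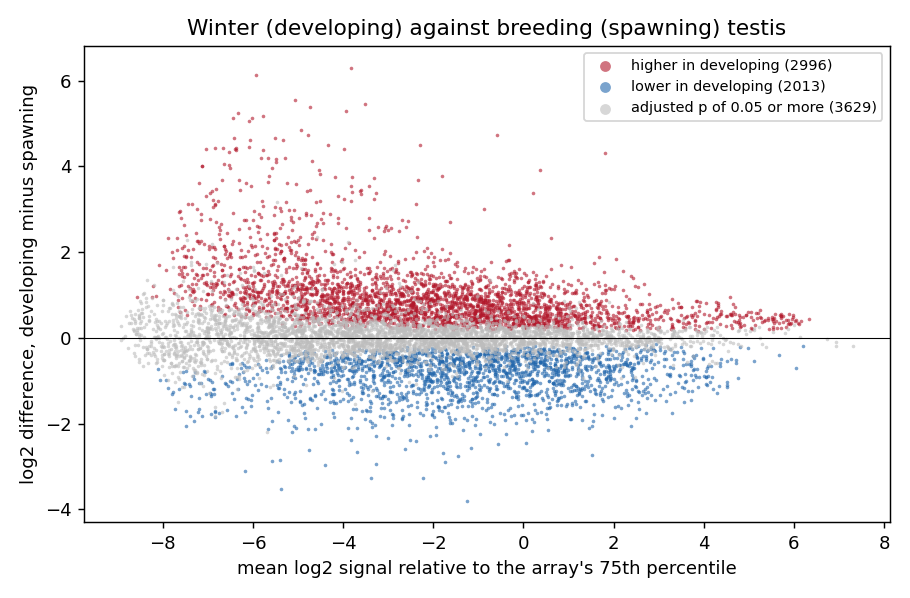
Each point is 1 of the 8638 probes. The horizontal axis gives the mean log2 level over the developing and spawning stages, relative to the array's 75th percentile, and the vertical axis the log2 difference, developing minus spawning. The 2996 higher probes reach 6.30 at low signal, whereas the 2013 lower probes reach -3.79.

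Over all tested probes large changes went mostly upward in winter, and the excess lay in the dimmer probes. At least 2-fold differences were found for 1070 higher and 667 lower probes, at least 4-fold for 239 and 51, and at least 8-fold for 95 and 5. At least 16-fold, 41 probes were higher and 0 lower. Of the 6886 probes well above background on all 13 arrays, 570 were higher and 571 lower by at least 2-fold, and 39 were higher and 37 lower by at least 4-fold. Only 14 of the 95 probes that were higher by at least 8-fold belonged to these, although 51 of the 95 were well above background on every developing array. A probe that is dim in either stage fails this filter however bright it is in the other. The filter is therefore not independent of the difference, and it can remove rises and falls alike.

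The upward excess followed the signal of the probes. The probes were divided by mean signal into 5 groups of like size. In the dimmest group (1728 probes) 554 were higher and 156 lower, and in the brightest 551 were higher and 578 lower. From the dimmest to the brightest group, 153, 60, 19, 4 and 3 probes were higher by at least 4-fold. Lower by at least 4-fold were 9, 14, 13, 10 and 5. Higher probes made up 78.0%, 65.7%, 58.7%, 55.4% and 48.8% of the calls from the dimmest to the brightest group. This order of the shares appeared with scaling to the 75th percentile and with normexp background correction. It also appeared with arrays centred on their median and with spike-in scaling. These 2 scalings subtract 1 value per array and move all probes alike, so that they are no separate test of the order. With normexp the median difference was 0.11 in the dimmest group and 0.14 in the next, against 0.33 and 0.20 with scaling to the 75th percentile. The order of the shares did not appear with quantile normalisation, where they lay between 49.4% and 54.8%. The 95 largest rises were also smaller with normexp. All 95 were still called higher, but their median difference was 2.32 on the log2 scale in place of 3.77. Among all tested probes 16 were higher by at least 8-fold.

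Few probes crossed Agilent's background criterion completely. The number of probes well above background on all 6 developing arrays and on none of the 7 spawning arrays was 3, and the reverse was found for 0. The 3 were higher in developing testis by at least 5.44-fold, 8.52-fold and 11.2-fold, with adjusted p of 4.40e-06, 1.52e-07 and 1.17e-05 in limma, a description of probes chosen by their detection in the same arrays. These bounds set the developing mean against the higher of the probe's own signal and the lowest signal well above background on each spawning array. With 1 array allowed to disagree in each stage, 64 probes were detected in developing and not in spawning testis, and 7 probes showed the reverse.

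The 95 largest rises were not shared evenly among the winter fish. Relative to the spawning mean, their median stood at 4.39, 5.19, 4.85 and 5.02 on the log2 scale in developing replicates 2, 4, 5 and 6, at 2.37 in replicate 3 and at 1.11 in replicate 1. The spawning fish lay between -0.26 and 0.49. Replicate 1 was the developing fish nearest to the spawning level in 63 of the 95 probes and replicate 3 in 14. In 30 of the 95 every developing fish lay above every spawning fish, beside 17.5% of all tested probes and 1506 of the 2996 higher probes. The median SD among fish was 2.02 in developing and 0.80 in spawning testis. With normexp replicates 1 and 3 were again lowest, at 0.38 and 0.85, with 2.66 to 3.30 in the other 4. With spike-in scaling they were again lowest, at 1.18 and 3.39, with 4.38 to 5.22 in the other 4. Without replicates 1 and 3 together, 143 probes were higher by at least 8-fold. These replicates were picked as the lowest in the set, so that leaving them out tends to raise this count by itself.

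By its median over the set, every winter fish showed the largest falls. The 51 probes that were lower by at least 4-fold had medians of -2.06, -2.56, -2.26, -3.06, -2.15 and -2.36 relative to the spawning mean in developing replicates 1 to 6, against -0.41 to 0.23 in the spawning fish. With spike-in scaling replicate 3 stood at -1.24 and the other 5 developing fish between -3.03 and -1.99. In 48 of the 51 every developing fish lay below every spawning fish, beside 11.8% of all tested probes and 1015 of the 2013 lower probes. Their median SD among fish was 0.72 in developing and 0.42 in spawning testis, and 37 of them were well above background on all 13 arrays. These sets were chosen by their difference in the same fish, so that their size and their overlap are descriptions, and the contrast in spread between the sets was not tested.

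**Figure D2:**
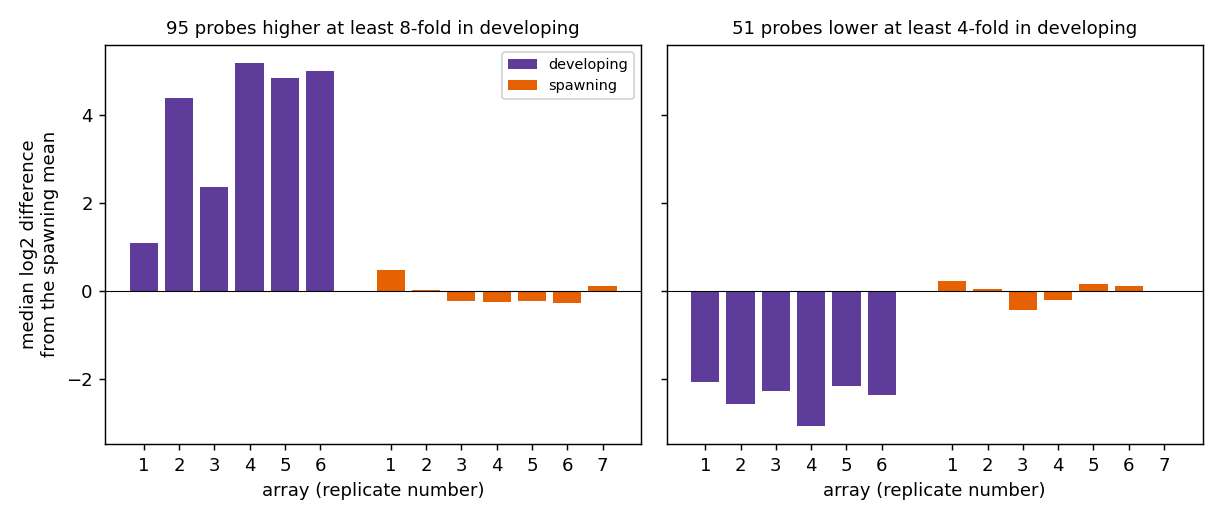
Each bar is 1 array, and its height is the median log2 difference from the spawning mean over the probes named above the panel. For the 95 largest rises the developing arrays stand between 1.11 and 5.19, with replicates 1 and 3 lowest. For the 51 largest falls the 6 developing arrays stand between -3.06 and -2.06.

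Over all probes the same fish stood apart most clearly on the second principal component. On the first principal component of the 13 arrays, which held 50.1% of the variance, developing replicates 1 and 3 had scores of -20.4 and -28.7, the other 4 developing fish scores of -72.0 to -47.5, and the spawning fish scores of 31.5 to 43.3. On the second (11.6%) replicates 1 and 3 reached 42.0 and 42.3, whereas the other developing fish lay between -22.0 and -8.34 and the spawning fish between -17.4 and 14.5. These replicates sit on slides 2 and 1, and slide 1 also holds developing replicate 6. Their share of probes well above background was 87.1% for replicate 1 and 95.2% for replicate 3, the highest of the developing arrays. The part of array quality in this split was not tested. By other measures developing replicate 4 was the most distant fish. It had the most extreme score on the first component, at -72.0. Its median distance from the stage median over all tested probes was 0.215 on the log2 scale. That distance was 0.204 for replicate 3, 0.193 for replicate 1 and 0.119 to 0.142 for the rest.

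**Figure D3:**
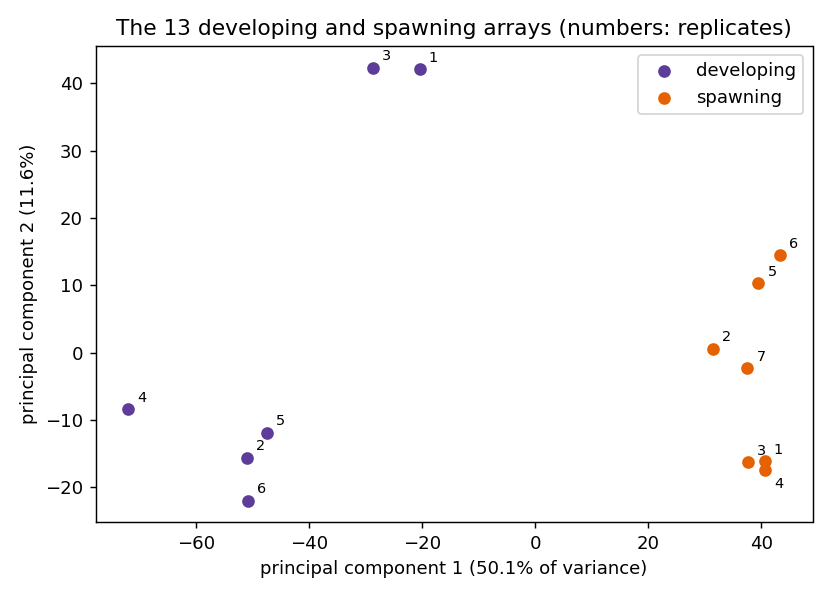
Each point is 1 of the 13 arrays, numbered by replicate, on the first and second principal components (50.1% and 11.6% of the variance). Developing arrays lie on the left and spawning arrays on the right, and developing replicates 1 and 3 lie apart from the other developing arrays on the second component.

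To see the difference in fish that had not been used to choose the probes, each array was left out in turn, probes were called from the remaining arrays, and the array left out was then set against the mean of the other stage. Of the probes called without it, 93.8% lay in the called direction in developing replicate 1, 94.4% in replicate 3 and 97.5% to 98.5% in the other developing fish. The median difference among higher probes was 0.58 and 0.61 on the log2 scale in replicates 1 and 3, and 0.70 to 1.02 in the other 4. For the spawning fish the share was 94.9% to 98.2%, lowest in replicate 6. The fish left out is set against the same other-stage mean that helped to choose the probes, so that these shares can be too high.

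The spread among fish was similar in size in both stages. The median SD among fish was 0.291 in developing and 0.275 in spawning testis on the log2 scale. For scale, the 2 spots of a probe on 1 array lay a median of 0.0687 to 0.106 apart. The SD was larger in developing than in spawning testis for 55.4% of the probes and exceeded 1 for 549 probes in developing and 413 in spawning testis. Without replicates 1 and 3 the median SD in developing testis was 0.245. With single developing arrays left out it was lowest without replicate 4, at 0.263. Correlated with its fellow arrays of the same stage, an array reached a mean of 0.9662 ± 0.0066 in developing and 0.9764 ± 0.0029 in spawning testis (SD, n = 6 and 7; exact permutation p = 0.00175, adjusted p = 0.00583), but arrays of a stage share these correlations, so that this p is too small.

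The slides did not divide the stages, since each of the 4 held both. When a slide was left out of the calling, 91.8% to 97.7% of the called probes differed in the same direction on that slide. With slide as a fixed block 4956 probes were called, against 5009. With a slide left out, so that fewer arrays entered, the calls numbered 4727 (slide 1), 4569 (slide 2), 3921 (slide 3) and 4586 (slide 4).

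Of the probes well above background on all 13 arrays, GT_EA516_un_as_sp_9361 had the largest difference upward. Its level was -2.14 at the lowest, 2.72 in the median and 3.95 at the highest in developing fish, against -4.74, -3.74 and 2.71 in spawning fish. The stages overlapped, since spawning replicate 6 lay at 2.71 and the other 6 spawning fish at or below -3.24, while developing replicate 5 lay at -2.14. The log2 difference was 4.72 ± 1.21 (SE), or 26.4-fold, with an adjusted p of 0.00149 in limma (0.00537 with the 13 arrays fitted alone). It ranged from 4.28 to 5.66 with any 1 array left out, and was 5.66 without spawning replicate 6. Within slides it was 7.15, 4.03 and 7.26 on slides 1, 2 and 3 but -1.51 on slide 4, which holds both deviating fish.

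GT_EA516_un_s_sp_39737 was the second. Developing fish had a level of -2.73 at the lowest, 0.34 in the median and 1.37 at the highest, against -5.78, -5.20 and -0.16 in spawning fish. Spawning replicate 6 was again the only spawning fish that reached the developing range, at -0.16, and the next spawning fish lay at -4.85. Developing replicate 3 was the lowest winter fish. The log2 difference was 4.50 ± 0.67 (SE), or 22.6-fold (adjusted p = 1.85e-06, or 0.00103 with the 13 arrays fitted alone, limma). Within slides the difference lay between 3.04 and 6.02.

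The falls of the leading probes were tighter. GT_EA516_un_as_sp_3217 had a level of -4.22 at the lowest, -3.13 in the median and -2.35 at the highest in developing fish, against -0.08, 0.76 and 1.00 in spawning fish. The stages were separated by a gap of 2.27 between the nearest fish. The log2 difference was -3.79 ± 0.28 (SE), a 13.9-fold lower signal (adjusted p = 1.33e-11, or 1.30e-06 with the 13 arrays fitted alone, limma). Within slides the difference lay between -4.08 and -3.19. The 2 spots of the probe gave -3.77 and -3.82.

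GT_EA516_an_as_xh_97 had a level of -4.37 at the lowest, -3.94 in the median and -3.10 at the highest in developing fish, against -1.11, -0.59 and 0.09 in spawning fish. No fish of 1 stage reached the other, and the gap was 1.98. The log2 difference was -3.27 ± 0.25 (SE), a 9.65-fold lower signal (adjusted p = 4.46e-11, or 5.38e-07 with the 13 arrays fitted alone, limma). Within slides the difference lay between -3.84 and -2.33.

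**Figure D4:**
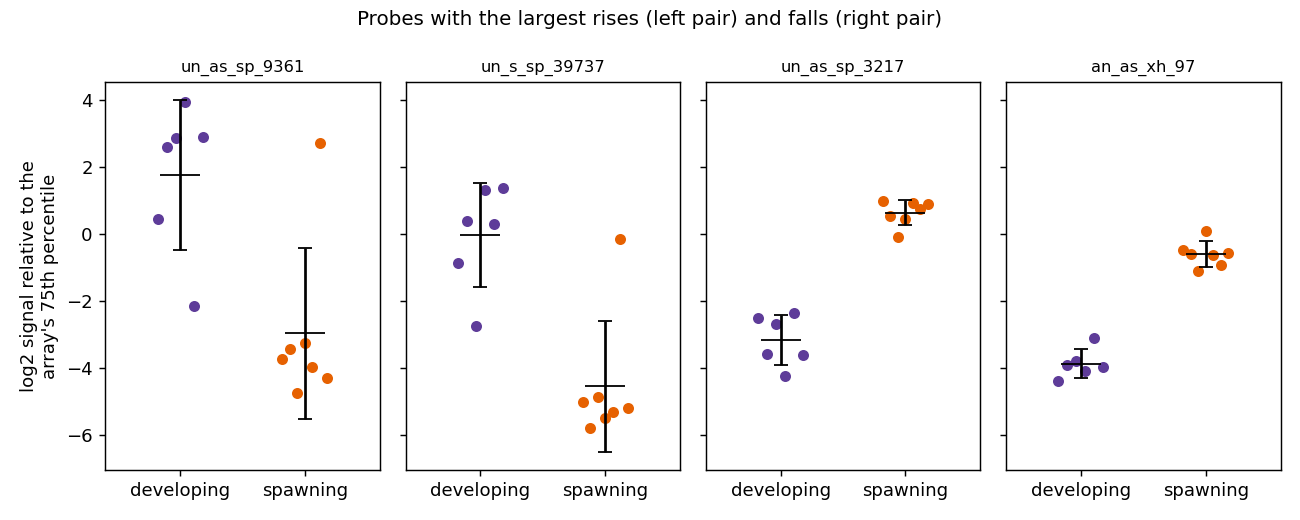
Each point is 1 fish, 6 developing and 7 spawning, for the 4 probes described above (the first part of each name, shared by all, is left out). The vertical axis is the log2 level (0 is the 75th percentile of the array), and the bars are the mean ± SD. For the risers 1 spawning fish, replicate 6, lies within the developing range, whereas for the fallers the stages do not overlap.

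The 4 probes took different courses through the other months. GT_EA516_un_s_sp_39737 was high in January alone by its stage means, with -5.13 ± 0.54 (SD, n = 6) in August, -4.96 ± 0.54 (n = 5) in October, -0.04 ± 1.55 (n = 6) in January and -4.88 ± 0.67 (n = 7) in March. GT_EA516_un_as_sp_9361 stood at -7.19 ± 0.46 in August, 0.22 ± 3.30 in October, 1.77 ± 2.23 in January and 0.61 ± 2.06 in March, with single fish in October between -3.68 and 3.19. This probe was well above background on 2 of the 6 August arrays.

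Both fallers were lower still in August than in January. GT_EA516_un_as_sp_3217 stood at -5.76 ± 0.55 in August, -0.17 ± 0.44 in October, -3.15 ± 0.75 in January and -0.28 ± 0.37 in March. GT_EA516_an_as_xh_97 stood at -4.70 ± 0.38, -1.15 ± 0.67, -3.87 ± 0.43 and -1.84 ± 0.49 in the same months. By these means the January low of both probes lay between an October and a March level that were both higher.

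Over all called probes, August lay farthest from spawning testis, then January, October and March. The 2996 higher probes lay a median of 0.99 above the spawning mean in August, 0.30 in October, 0.79 in January and 0.11 in March. The 2013 lower probes lay at -0.27 in October, -0.76 in January and -0.20 in March, and in August the 6 arrays lay between -1.13 and -0.92. These values share the spawning arrays, which tends to give them the same sign. With arrays centred on their median they were 0.74, 0.26, 0.66 and 0.13 for the higher probes and -1.25, -0.31, -0.89 and -0.17 for the lower probes.

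**Figure D5:**
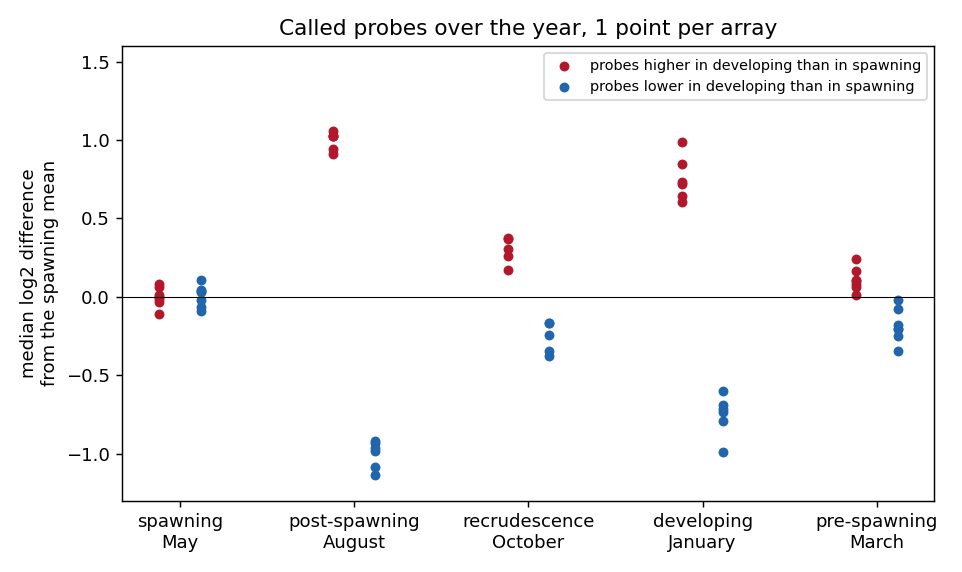
Each point is 1 array, and the vertical axis is the median log2 difference from the spawning mean over the 2996 probes higher (red) or the 2013 probes lower (blue) in developing than in spawning testis. The points of August lie between 0.91 and 1.05 for the higher probes, and those of March between 0.01 and 0.24.

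The means of the other months use none of the 13 arrays, although the common fit shares its estimate of the spread with them. Between August and March, 4001 probes were higher and 2381 lower in post-spawning than in pre-spawning testis, 46.3% and 27.6% of those tested and 73.9% together. Over all tested probes the median difference was 0.28 on the log2 scale with scaling to the 75th percentile. The split into higher and lower was not repeated under other scalings. Of the probes higher in developing than in spawning testis 2225 (74.3%) were higher in August than in March and 234 (7.81%) lower. Of the probes lower in developing testis 289 (14.4%) were higher and 1348 (67.0%) lower. With the 18 arrays of August, October and March fitted alone, these shares were 74.6% and 8.01% for the probes higher in developing testis and 14.5% and 67.4% for the lower ones. The comparison of August with March was added after the data were examined.

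Between October and March the shares were smaller, as was the share called over all probes, and October was not tested against August. Recrudescent testis had 1440 probes (16.7%) above and 1126 (13.0%) below pre-spawning testis, 29.7% of all together. Among the probes higher in developing testis these shares were 27.3% and 5.87%, and among those lower in developing testis 13.7% and 21.9%. With the 18 arrays fitted alone they were 26.8% and 5.51%, and 14.1% and 21.9%. The total of 2566 October calls was smaller without any of the 3 slides that hold recrudescence arrays, at 1782 without slide 1, 1585 without slide 2 and 1606 without slide 3. With spike-in scaling it was 739. A direct test of the difference of differences, developing minus spawning against recrudescence minus pre-spawning, called 3438 probes (39.8%), and 924 with spike-in scaling. It was 4.58 ± 0.97 (SE) for GT_EA516_un_s_sp_39737 (adjusted p = 0.000496, limma) and 5.10 ± 1.76 for GT_EA516_un_as_sp_9361 (adjusted p = 0.022). It was -3.91 ± 0.40 for GT_EA516_un_as_sp_3217 (adjusted p = 6.38e-08) and -3.97 ± 0.37 for GT_EA516_an_as_xh_97 (adjusted p = 2.09e-08). These 4 probes were chosen by their difference between developing and spawning testis, which is part of this contrast. Their values here are therefore descriptions, and their p-values are too small.

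The largest rises and the largest falls were also followed through the other months. Relative to March, the 95 largest rises had a median of -0.03 in August, -0.23 in October and 3.09 in January. Between August and March 24 of them were called higher and 21 lower, so that this median covers probes that went both ways. The 51 largest falls had a median of -2.18 in August, 0.04 in October and -1.69 in January. Between August and March 3 of them were called higher and 39 lower. Over all tested probes 46.3% were higher and 27.6% lower in August than in March. The January values restate how the sets were chosen, and many of the 95 are near background on some arrays. The difference between the sets was not tested, because both were chosen by their size in this comparison.

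The design names of the probes carry fields whose meaning is not explained in the sources used here. Probes with xh in the name were called in 65.1% of 2832 cases and probes with sp in 54.5% of 5789, against 58.0% of all. Probes with an were called in 60.8% of 6219 cases and probes with un in 50.7% of 2402. The signal moved with these shares, since 85.1% of the xh probes and 77.2% of the sp probes were well above background on all 13 arrays, as were 83.8% of the an and 69.4% of the un probes, and its part was not tested. Probes with as and with s were called in 56.5% and 58.6% of cases. Of 17 tested probes whose names start with CUST, 8 were higher and 2 lower in developing testis. Together this is 58.8%, near the share of all probes, but 47.1% were higher, against 34.7% of all. Their differences ran from -1.37 to 3.39 on the log2 scale, with a median of 1.07 against 0.12 over all probes. Only 47.1% of them were well above background on all 13 arrays, against 79.7% of all.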

How the data were processed

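Scanner output of 31 arrays was used. Per the file headers, the authors extracted the spots with Agilent Feature Extraction 10.7.1.1, and the deposited processed signal is an intensity on a linear scale, with each array's own background removed and no scaling across arrays. The authors' deposited table of log2 values, whose normalisation no source used here states, served as an alternative. The log2 intensity was taken relative to each array's 75th percentile, 426 spots with outlier flags were removed, and repeated spots were averaged. Saturation affected 0 non-control spots. A probe passed Agilent's background criterion on an array if its spots did so in a share of at least 0.5. Testing covered the 8638 of 9041 probes that passed it on 5 or more of the 31 arrays; 43 of them lack a value on a developing or spawning array. Stage means of all 31 arrays were fitted by lmFit and eBayes of limma 3.58.1 (R 4.3.3), with Benjamini-Hochberg adjustment over all tested probes and a threshold of 0.05. The p-values rest on the spread among fish within stages, pooled over all 31 arrays. Each stage is a single collection, so that variation between collections does not enter them. The number of arrays limits the precision. The code was tested on simulated data. The lists of genes made for this comparison gave no result, because no table used here pairs probes with genes; in that case the rule was to name the 2 most raised and the 2 most lowered among called probes well above background on all 13 arrays and of 1 direction after leaving out any array. The comparison, lists and rules were chosen with earlier results of these data known. Replicate numbers were not used as pairs: by the numbers of the titles, same-numbered developing and spawning arrays correlated at -0.15 to -0.0039 in their deviations from the stage means. Normexp started from median pixel signals, since mean signals were not in the files used here. Alternatives were other background corrections, scalings, filters, blocks, array weights and arrays left out.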

Additional observations from a re-analysis of the deposited data

Results flagged for a closer look

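Arrays were singled out when the gap to the nearest array of the stage divided by the whole range of that stage exceeded Dixon's critical value at 95%. Over 18 groups of values 3 stood out, all of them spawning replicate 6, and chance alone singles out about 1 group in 20; the probes were chosen for large differences, so that this rate is only a guide for them. Its level of GT_EA516_un_as_sp_9361 was 2.71, against -3.24 in the next spawning fish. Its level of GT_EA516_un_s_sp_39737 was -0.16, against -4.85 in the next. Its median distance from the stage median over all tested probes was 0.218 on the log2 scale, against 0.164 in the next spawning fish.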

How the results depend on the processing

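The count of called probes (5009) lay between 4639 and 4957 with any 1 array left out, with 2735 to 2973 higher and 1904 to 2027 lower. On leaving out 1 array, non-overlapping probes numbered 2585 to 2908. Leaving out an array can only add such probes to the 2527, so that this range is no check of their number. Probes at least 2-fold numbered 1490 to 1797 with 1 array left out, and probes higher at least 8-fold 84 to 114. Calls between October and March then numbered 2197 to 2646 and those between August and March 6263 to 6424. Those of the difference of differences numbered 3097 to 3563. For these calls the arrays of the stages concerned were included. Spike-in scaling left 3075 called probes (917 lower), 861 non-overlapping probes, 739 October calls and 924 differences of differences. The cause was not tested. A test against a fold of 1.5, which asks for more than a difference from 0, left 1424 called probes (861 higher and 563 lower), 78 October calls, 3821 August calls and 657 differences of differences. At least 2-fold changes (1737 together) numbered 1054 with normexp, where the cause was not tested, and 1142 under the filter to probes above background on all 13 arrays, which tests fewer probes. At least 8-fold rises numbered 16 with normexp, 51 under the filter to all arrays of either stage, 14 under the filter to all 13 arrays, and 143 without developing replicates 1 and 3. These replicates were the lowest developing fish in the largest rises, so that the last count tends to be larger by itself. October calls numbered 1585 without slide 2 and 1606 without slide 3, where fewer arrays entered. Alternatives for the fold, non-overlap, October, August and difference-of-differences counts were chosen after seeing the data. With the replicate block 4901 probes (numbers of the titles) or 4888 (numbers of the descriptions) were called, and all 4 named probes were called in the same direction. By the numbers of the descriptions, same-numbered arrays correlated at -0.062 to 0.25, and 3 of 6 developing arrays correlated best with their own number. Most developing and spawning arrays with the same description number also shared a slide, and the part of the slide was not tested. Every setting tried kept the direction and the call of the 4 named probes where it gave them a value. Their direction on leaving out 1 array was a condition of their choice. Without slide 3 the call of GT_EA516_un_as_sp_9361 was near the threshold, with a log2 difference of 3.55 (adjusted p = 0.0429, limma). Signal near background limits the dimmest of the 5 signal groups, of which 8.22% were well above background on all 13 arrays.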
